A study of Mus musculus with 46 samples.

Results

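Pancreatic islets hold several endocrine cell types besides the insulin-producing beta cells, and 8 genes that mark them or the islet's nerves are described here in whole mouse islets. They are the hormone genes Gcg, Sst, Ppy, Pyy and Ghrl, the neuropeptide gene Vip, and the transcription factor genes Irx2 and Hhex, chosen by symbol from 55487 genes in each file. The choice had the fall of Vip RNA on HFD in view, so the differences between diets are given as descriptions, with no test. The 33 islet libraries come from 2 experiments. In the first, 14 libraries are labelled Tfam control (5 female, 3 male) or Tfam KO (4 female, 2 male). In the second, 19 libraries are labelled Clec control or Clec KO, here called Clec16a after their descriptions, on diets written HFD (6 control, 5 KO) and RFD (4 control, 4 KO). The labels spell out neither diet and name neither the allele, the cells in which a gene was deleted, the age of the mice, nor whether islets of several mice were pooled. All islets were kept overnight in culture before total RNA was taken.

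Each endocrine cell type is known for its hormone. Alpha cells make glucagon from the Gcg transcript and use the homeobox factor Irx2, delta cells make somatostatin and depend on the homeobox factor Hhex, PP cells make pancreatic polypeptide from Ppy, peptide YY is made by several islet cell types, and the rare epsilon cells make ghrelin. VIP is a neuropeptide of the autonomic nerve fibres that reach the islet, where it acts on G protein-coupled receptors that raise cyclic AMP. Somatostatin restrains its neighbours, glucagon acts on beta cells through the glucagon and GLP-1 receptors, and VIP through Vipr1 and Vipr2.

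The promoter sequences of Vip and Gcg, the genes with the widest difference between diets and the highest RNA level, were read from RefSeq on GRCm38.p6. Each stretch is the 250 bases before the start of the gene, read 5′ to 3′ on the gene's own strand. Capitals mark the letters TGACGT, the core of the cyclic AMP response element, and TATAAA, the TATA box, or their reverse complements ACGTCA and TTTATA. The Vip stretch lies at chr10:5638968-5639217 on the plus strand and the Gcg stretch at chr2:62483654-62483903 on the minus strand.
Vip: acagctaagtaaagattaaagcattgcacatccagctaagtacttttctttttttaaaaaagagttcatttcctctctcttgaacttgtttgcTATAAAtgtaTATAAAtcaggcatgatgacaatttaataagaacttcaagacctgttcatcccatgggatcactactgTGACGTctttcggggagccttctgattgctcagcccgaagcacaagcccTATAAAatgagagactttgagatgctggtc
Gcg: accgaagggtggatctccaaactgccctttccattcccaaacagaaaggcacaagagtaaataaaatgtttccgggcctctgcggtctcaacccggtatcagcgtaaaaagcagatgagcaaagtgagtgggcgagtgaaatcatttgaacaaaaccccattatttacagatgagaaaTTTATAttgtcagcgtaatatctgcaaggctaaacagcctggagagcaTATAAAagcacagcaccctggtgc

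The cyclic AMP response element was found in the windows of Vip and Sst alone among the 8 genes. It is shown with its flanks in 30 bases, at chr10:5639127-5639156 (plus strand) for Vip and at chr16:23890875-23890904 (minus strand) for Sst. In Sst the matches on both strands overlap and form 1 palindrome, TGACGTCA, while Vip holds a single core.
Vip core: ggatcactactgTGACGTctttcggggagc
Sst core: cgcctccttggcTGACGTCAgagagagagt

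In Vip the core begins 79 bases before the RefSeq start, and in Sst 48 bases before it. The annotations used here differ for Sst: by GENCODE M21 the gene reaches chr16:23890958, so the 30 bases shown lie inside it. The TATA letters nearest the start begin 30 bases before it in Vip, 24 bases in Gcg and 31 bases in Ppy. Of 32851 RefSeq windows of 300 bases (250 before to 50 after a start), 7.51% held the response element core and 13.6% the TATA letters on either strand. A match is a description of the letters and shows no binding.

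All 8 genes are protein-coding genes with 1 identifier each. On GRCm38, by GENCODE M21, Gcg lies at chr2:62474530-62483650, Sst at chr16:23889573-23890958, Vip at chr10:5639218-5647617, Irx2 at chr13:72628820-72634198 and Hhex at chr19:37434810-37440731. Ppy (chr11:102099930-102101319) and Pyy (chr11:102106676-102107832) are neighbours on the minus strand, 5356 bases apart. Ghrl (chr6:113716119-113719880) overlaps the antisense gene Gm26982 and the unclassified Gm44033, and the sources used here do not say whether counting used strand, so its values are uncertain.

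Library totals ran from 55223041 to 83342809 counts in the Tfam islets and from 16235173 to 55810879 in the Clec16a islets. Tfam RNA lay at 37.8 to 44.7 CPM in the 8 Tfam control libraries and at 16.02 to 18.9 CPM in the 6 KO libraries. Clec16a RNA lay at 20.9 to 31.8 CPM in the 10 control and 23.4 to 32.9 CPM in the 9 KO libraries of that experiment, so the gene count does not separate those labels. A count over the whole gene need not show the loss of part of it. The Clec16a labels give no sex: all 19 libraries held Xist RNA (302 to 534 CPM) and 0 counts of Ddx3y. CPM here are counts scaled to the library size after TMM normalization within an experiment. No 2 libraries held identical counts. The labels call the samples biological replicates but do not say that each came from its own mouse.

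Glucagon RNA was the most abundant of the 8 transcripts in 33 of 33 libraries. On the authors' TPM scale, which corrects for transcript length, Gcg ranged from 34603 to 176504 TPM with a median of 76657, Ppy from 5949 to 37384 TPM with a median of 20463, and Sst from 7035 to 26426 TPM with a median of 14290.5. Gcg alone made up between 3.46% and 17.7% of the TPM sum of a library. Ppy exceeded Sst in 27 of 33 libraries, so the order of these neighbours did not hold in every library, whereas both exceeded Pyy (3534 to 14781 TPM with a median of 6726) in all 33.

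The other transcripts stood far lower. Irx2 ranged from 14.1 to 42.3 TPM with a median of 26.7 and exceeded Hhex (6.12 to 14.04 TPM with a median of 8.87) in 33 of 33 libraries. Ghrl had a median of 3.86 TPM in the Tfam and 22.8 TPM in the Clec16a experiment, which differ in design and labelled conditions, so this gap was not tested. Vip ranged from 2.25 to 40.1 TPM with a median of 6.31, and its place against Hhex and Ghrl changed from library to library: it exceeded Hhex in 12 and fell below Ghrl in 20 of 33 libraries. In the 13 liver libraries of the series, used as tissue without islet cells, Gcg, Ppy and Pyy had 0 counts in every library, and Hhex, which hepatocytes also express, lay between 45.3 and 172 CPM.

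**Figure D1:**
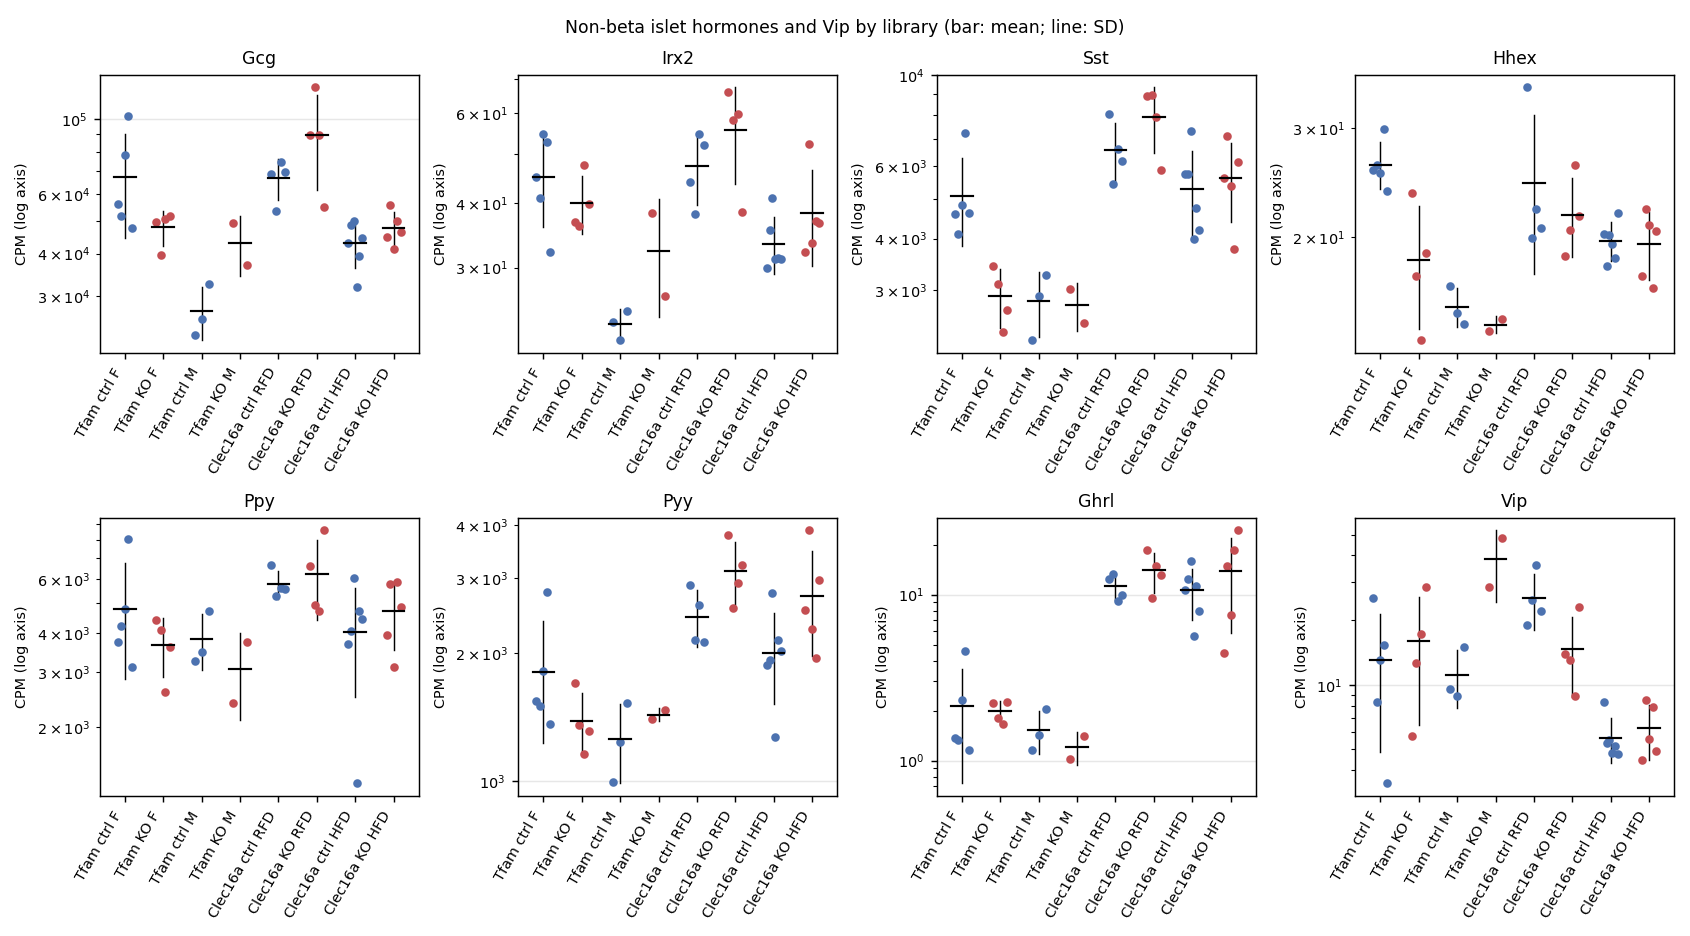
CPM of each of the 8 genes by library on a log axis, for the 8 islet groups (ctrl, control; F, female; M, male), control libraries in blue and KO libraries in red, with the group mean as a bar and the SD as a line. TMM scaling was done within each experiment, so levels should be compared within the 4 Tfam or the 4 Clec16a groups; Vip lies lowest in the HFD groups, and Gcg, Irx2, Sst and Hhex lie low in Tfam control males.

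Somatostatin RNA and that of the delta cell factor Hhex were lower in Tfam KO islets of females, with no difference called in males. Over both sexes with sex as a term, Sst was lower by a log2 fold change of -0.53 ± 0.16, adjusted p = 0.0278 (edgeR quasi-likelihood test, Benjamini-Hochberg over 19752 genes), and Hhex by -0.36 ± 0.11, adjusted p = 0.0252. These were 2 of 8 members called, both lower. Of all genes tested, 20.9% were called in either direction and 9.29% were called lower. With 8 members, 2 calls are not set apart from these shares. Within a sex, both calls were made in females. There Sst was at 4579.6, 4094, 4824, 7227 and 4612 CPM in the 5 controls and 3437, 3103, 2364 and 2686 CPM in the 4 KO libraries. The groups did not overlap: all KO libraries lay below the lowest control. The share of all genes without overlap was not counted, here or below, so overlap is a description. Hhex was at 25.7, 26.1, 25.3, 29.9 and 23.8 CPM in control and 23.6, 17.3, 13.6 and 18.9 CPM in KO females, again without overlap, KO replicate 1 coming closest to the controls. In this contrast Sst differed by -0.81 ± 0.17, adjusted p = 0.00516, and Hhex by -0.51 ± 0.12, adjusted p = 0.0142. Of all genes tested, 10.8% were called in females and 4.17% were called lower.

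In males no member was called by this test, where 8.93% of genes were. Sst was at 2261, 2904 and 3266 CPM in the 3 controls and 3017 and 2495 CPM in the 2 KO libraries, and Hhex at 16.7, 15.1 and 14.5 and 14.1 and 14.8 CPM. For both genes the KO values lay among or beside the control values, and the level of male controls was already that of female KO islets. The log2 differences were -0.028 ± 0.22, adjusted p = 0.957 for Sst and -0.094 ± 0.17, adjusted p = 0.787 for Hhex. The difference between the sexes itself, tested as an interaction, was 0.78 ± 0.27, adjusted p = 0.691 for Sst. No gene of 19752 passed that test (0.00% called), with 1230 at an unadjusted p under 0.05, 34 called by the DESeq2 Wald test and 30 by edgeR with no filter.

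The 5 other delta cell genes (Ghsr, Rbp4, Etv1, Lepr and Spock3) were all lower in the fit over both sexes, by a median of -0.13, and 0 of 5 passed the test; the median over all genes was -0.01. The ratio of Sst to Hhex counts within a library, on the log2 scale, was 7.32 ± 0.17 in 4 KO and 7.57 ± 0.23 in 5 control female libraries (SD). That difference was not separated from the spread (exact two-sided permutation p = 0.111, 0.381 after adjustment over 8 ratio tests). In whole islets, fewer cells of a type and less RNA of the gene per cell cannot be told apart. Scaling mattered here: with library totals in place of TMM factors the median of all genes moved to 0.20, and over both sexes neither Sst (-0.31, adjusted p = 0.112) nor Hhex (-0.15, adjusted p = 0.317) was called. In females Hhex was not called with library totals (-0.29, adjusted p = 0.112). With no sex term both calls over both sexes were lost (adjusted p = 0.0557 for Sst and 0.147 for Hhex), and that of Sst was lost by the DESeq2 Wald test (adjusted p = 0.0671). The Sst and Hhex calls over both sexes were also lost without KO female replicate 2 or 4, and that of Sst without replicate 3. Across these losses the adjusted p of the edgeR test ran from 0.0536 to 0.0751.

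Glucagon RNA showed no called difference between Tfam genotypes in either sex, and its point estimates had opposite signs. In females Gcg was at 56226, 51795, 78529, 102257 and 47658 CPM in control and 49774, 39499, 50699 and 51588 CPM in KO islets, groups that overlapped (-0.49 ± 0.20, adjusted p = 0.138). In males it was at 23047, 25648 and 32469 CPM in control and 49189 and 36924 CPM in KO islets. Both KO male libraries lay above the 3 controls, yet the difference did not pass the test (0.67 ± 0.27, adjusted p = 0.139); it passed without control female replicate 4 (0.67, adjusted p = 0.0454), with library totals (0.86, adjusted p = 0.0184) and with only the male groups fitted (0.66, adjusted p = 0.0439). Irx2 took the same course: overlapping in females (-0.17 ± 0.15) and at 23.5, 21.7 and 24.7 against 38.3 and 26.4 CPM in control and KO males, with no overlap (0.47 ± 0.20, adjusted p = 0.154). The interaction with sex was 1.16 ± 0.33, adjusted p = 0.62 for Gcg, and 0.64 ± 0.25, adjusted p = 0.702 for Irx2, unadjusted p = 0.00338 and 0.0191. The 8 other alpha cell genes gave 0 calls in females and 0 in males, with medians of -0.29 and 0.27.

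Ppy, Pyy and Ghrl, the markers of the remaining endocrine cells, had log2 differences of -0.36, -0.18 and -0.19 over both sexes, none called (adjusted p = 0.212 to 0.698). The 11 beta cell genes measured moved further: 11 of 11 were lower over both sexes, with a list median of -0.65. The 3 with the smallest adjusted p were Ins1 at -1.26 ± 0.10, Ucn3 at -0.88 ± 0.08 and Ins2 at -0.93 ± 0.10. The part of this shift in the members' share of RNA was not tested.

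Vip RNA was high in both Tfam KO male libraries. It was at 9.57, 8.91 and 14.9 CPM in the 3 control and 28.5 and 48.2 CPM in the 2 KO males, with no overlap, but the test did not call it (1.78 ± 0.62, adjusted p = 0.0889). In females the values spread widely in each genotype, from 25.3, 8.28, 12.997, 15.4 and 3.47 CPM in control to 5.796, 12.7, 17.3 and 28.5 CPM in KO islets, and overlapped (0.30 ± 0.46). Over both sexes the difference was 0.85 ± 0.41, adjusted p = 0.162, and without control female replicate 1, the highest control, it was called (1.11, adjusted p = 0.0452). In males, genes of other cell types moved with Vip: 10 of 11 autonomic neuron genes, 8 of 8 Schwann cell genes and 14 of 15 acinar genes had positive differences, with medians of 1.03, 1.14 and 1.25 beside 0.01 over all genes. Macrophage genes (9 of 9 positive, median 0.68), fibroblast and stellate cell genes (7 of 9, 1.10) and duct genes (7 of 8, 0.75) lay on the same side. Of the neuron genes 1 of 11 was called, lower (Th, -0.80 ± 0.23). The Schwann cell, macrophage, fibroblast and duct lists had 3 called genes each, all higher. Of these 12 calls 11 were lost without control male replicate 2, 10 without either KO male library, 7 without control male replicate 1 and 6 without replicate 3. Summed acinar RNA ran from 2649 to 7697 CPM in control and 4208 to 21043 CPM in KO males, and its part in the Vip values was not tested.

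The males' Vip call turned on the setting. With only the male groups in the fit Vip reached 1.77, adjusted p = 0.00899, with no filter on low counts 1.79, adjusted p = 0.0116, and with library totals 1.99, adjusted p = 0.0397. Leaving out control female replicate 5 also gave a call (adjusted p = 0.0439). With 2 KO libraries the direction was the same under each of these, and the spread of the KO group rests on 1 pair of values.

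**Figure D2:**
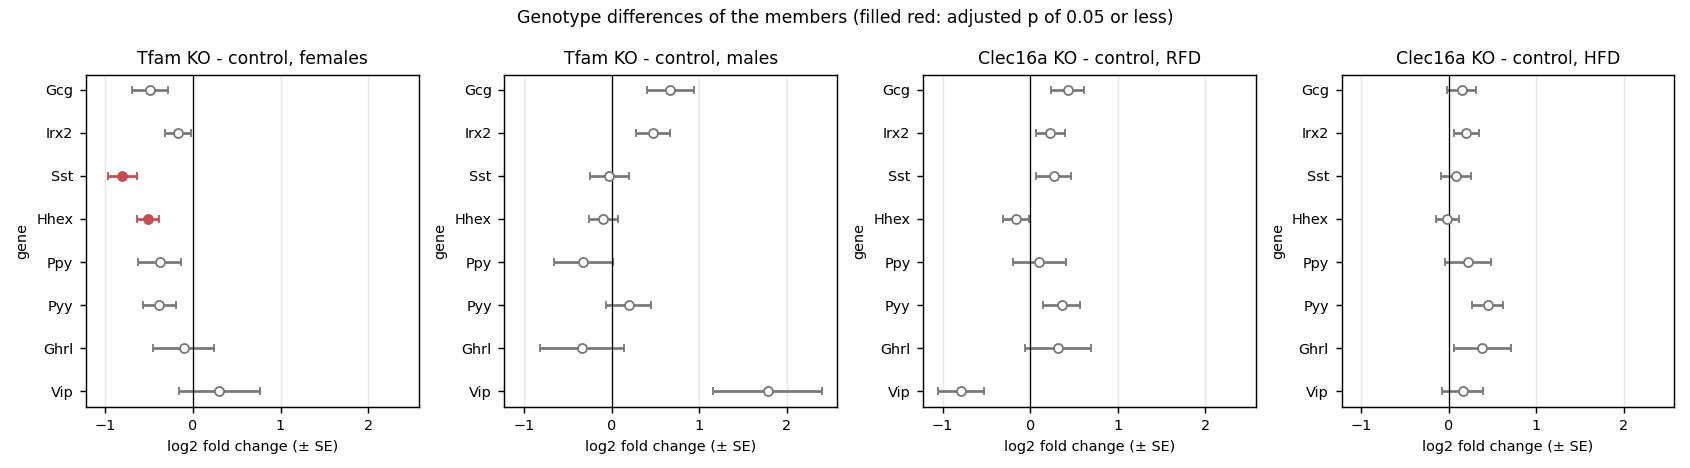
Log2 fold change of each member, KO minus control, with its standard error, in Tfam females, Tfam males, and Clec16a islets on RFD and on HFD; filled red points passed an adjusted p of 0.05. Only Sst (-0.81) and Hhex (-0.51) in Tfam females are filled, and the Vip point of Tfam males, at 1.78, has the widest error.

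A difference between male and female control islets, compared after the values were seen, took in both alpha and delta cell genes. Gcg was at 23047, 25648 and 32469 CPM in males against 56226, 51795, 78529, 102257 and 47658 CPM in females, and Irx2 at 23.5, 21.7 and 24.7 against 45.03, 40.98, 54.5, 52.7 and 32.1 CPM. Neither gene's groups overlapped, and the same held for Sst and Hhex, whose values are given above. How many of all genes did not overlap between these groups was not counted. All 4 were called lower in males: Gcg by -1.31 ± 0.23, adjusted p = 0.0143, Irx2 by -0.95 ± 0.16, adjusted p = 0.0143, Hhex by -0.76 ± 0.14, adjusted p = 0.0167, and Sst by -0.85 ± 0.18, adjusted p = 0.0357. These are 4 of 8 members, where 1.53% of all genes were called (303 of 19752), 0.780% lower.

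Most other genes of both cell types went the same way. The alpha cell gene Gc had a positive estimate (0.11 ± 0.18), and the delta cell gene Lepr lay within its SE of 0 (-0.079 ± 0.39). Of the 8 other alpha cell genes, 3 were called lower in males: Peg10 (-1.28 ± 0.22), Irx1 (-1.17 ± 0.21) and Slc38a5 (-1.72 ± 0.39), an amino acid transporter. Of the 5 other delta cell genes, 3 were called lower: Spock3 (-1.02 ± 0.18), Rbp4 (-0.79 ± 0.14), a retinol carrier, and Etv1 (-0.66 ± 0.13). Without control male replicate 1 all 6 of these calls were lost, and without replicate 2 all but that of Peg10 (adjusted p = 0.084 to 0.192). The Slc38a5 call was lost without any 1 of 11 of the 14 libraries, the exceptions being control female replicates 1, 2 and 5. The beta cell list gave 0 calls, with 10 of 11 genes positive and a median of 0.14. Summed acinar RNA overlapped between the sexes, at 1267 to 11575 CPM in females and 2649 to 7697 CPM in males.

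Between the sexes of KO islets 0 members were called (0.0608% of all genes, 12 genes), and Gcg differed by -0.15 ± 0.26 and Irx2 by -0.31 ± 0.19. Of the 4 calls in control islets none was left without control male replicate 1 (adjusted p = 0.0677 to 0.168) or without replicate 2 (0.129 to 0.173). The Sst call was also lost without control female replicate 3 or KO female replicate 2 or 4 (adjusted p = 0.05 to 0.055). Only that of Hhex was left when only these groups were fitted.

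**Figure D3:**
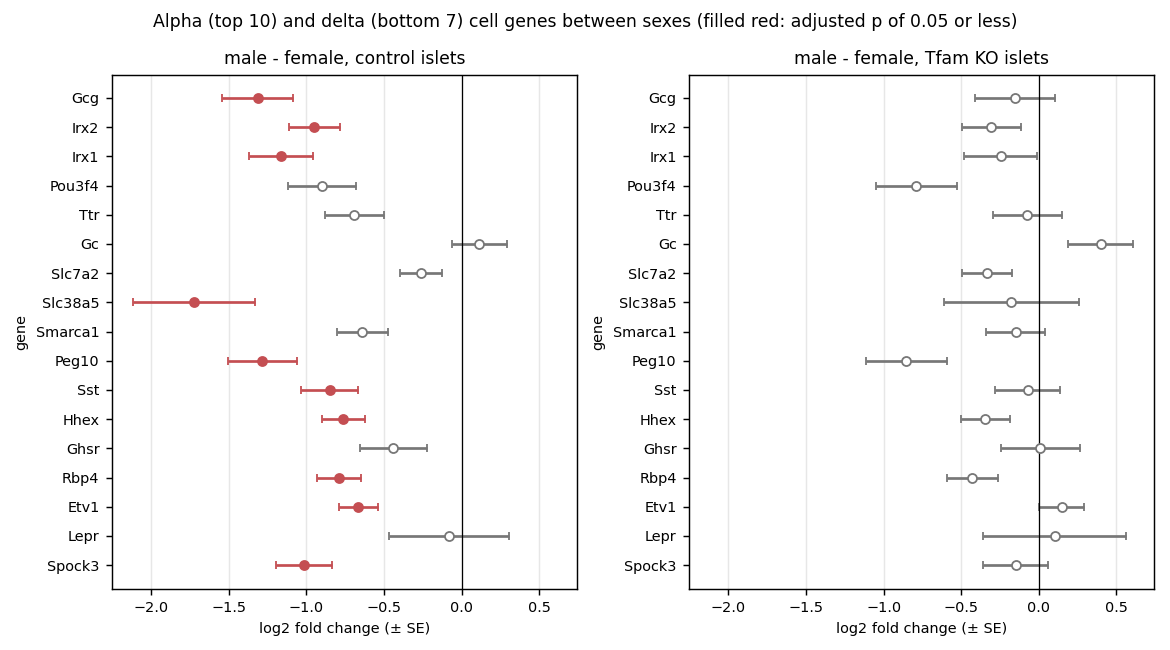
Log2 fold change, male minus female, with its standard error, for Gcg, Irx2 and 8 other alpha cell genes (top) and Sst, Hhex and 5 other delta cell genes (bottom), in control and in Tfam KO islets; filled red points passed an adjusted p of 0.05. In control islets 10 of the 17 genes are filled and all 10 lie below 0, and in KO islets none is filled.

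In Clec16a KO islets none of the 8 members was called on either diet, where 7.52% of genes were called on RFD and 9.57% on HFD. On RFD the glucagon transcript was at 68912, 53464, 74669 and 69924 CPM in control and 89798, 124191, 89678 and 55093 CPM in KO islets. Of the 4 KO libraries 3 lay above every control, and replicate 4 lay near the lowest one (0.43 ± 0.19, adjusted p = 0.192). Vip on RFD was at 19.1, 24.7, 36.2 and 21.998 CPM in control and 13.9, 13.05, 8.87 and 22.9 CPM in KO islets. Here 3 of 4 KO libraries lay below every control and replicate 4 lay among them. The difference of -0.79 ± 0.26, adjusted p = 0.0718, was not called by this test and passed the DESeq2 Wald test (-0.79, adjusted p = 0.0303). The choice of Vip had its fall on HFD in view, and that fall uses these RFD values. Its p-values on RFD, here and with a library left out, are therefore descriptions and no support.

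Without KO RFD replicate 4, the library that stood nearest to the controls for both genes, Gcg was called higher (0.60, adjusted p = 0.0435) and Vip lower (-1.10, adjusted p = 0.0231). On HFD, Pyy was at 2527, 3891, 2275, 1950.1 and 2967 CPM in KO islets and, in the 6 controls, from 1265 to 2769 with a median of 1973 CPM. The groups overlapped (0.44 ± 0.18, adjusted p = 0.133), and without KO HFD replicate 4 the gene was called (0.54, adjusted p = 0.0369). The interaction of genotype with diet was called for 0 of 17254 genes (0.00%), with 406 at an unadjusted p under 0.05 and 20 called by the DESeq2 Wald test. Sst and Hhex, the pair that fell in Tfam KO females, differed by 0.27 ± 0.20 and -0.16 ± 0.15 on RFD and by 0.083 ± 0.17 and -0.016 ± 0.13 on HFD. Of the 8 other alpha cell genes only Gc was called, higher on RFD (1.06 ± 0.25) and on HFD (1.40 ± 0.21). Of the 5 other delta cell genes only Etv1 was called, higher on both diets (0.79 ± 0.21 and 0.90 ± 0.18). The RFD call of Etv1 was lost without any of the 4 control RFD libraries or KO RFD replicate 2 or 3. The uncalled genes of both lists had estimates of either sign. Endothelial and fibroblast RNA moved with the genotype: 8 of 8 endothelial genes were called higher on RFD and 7 of 8 on HFD, and 3 and 6 of 9 fibroblast and stellate cell genes. Summed endothelial RNA lay at 497 to 519.5 CPM in control and 802 to 902 CPM in KO islets on RFD, without overlap, and at 464 to 627 and 531 to 933 CPM on HFD, with overlap. The 3 fibroblast calls on RFD were all lost without control RFD replicate 3 or 4, and 4 of the 6 on HFD without KO HFD replicate 3. The duct gene Spp1 was called higher on both diets (2.55 ± 0.45 and 1.77 ± 0.37). The part of these cells in the members' values was not tested.

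Of the 11 receptor genes tested (of 16 listed, Gipr, the receptor of the incretin GIP, among them), 5 were called in Tfam KO islets, 2 higher and 3 lower, beside the 20.9% of all genes given above. The VIP receptor gene Vipr2 rose most, from 2.14, 1.42, 2.59, 1.78 and 2.31 CPM in control to 9.57, 6.52, 10.7 and 9.502 CPM in KO females and from 2.16, 1.77 and 2.02 to 10.5 and 11.05 CPM in males. All 6 KO libraries lay above all 8 controls (2.25 ± 0.14, adjusted p = 1.12e-08). The glucagon receptor gene Gcgr rose too, from 16.5, 18.4, 13.6, 17.7 and 20.8 to 39.4, 33.9, 30.8 and 30.6 CPM in females and from 28.2, 21.3 and 20.5 to 38.9 and 37.1 CPM in males (0.86 ± 0.10, adjusted p = 1.36e-05). Neither sex overlapped. The incretin receptor gene Gipr fell (-1.26 ± 0.13, adjusted p = 3.91e-06), as did Glp1r (-0.48 ± 0.11), the receptor of the GLP-1 made from the Gcg product, and Vipr1 (-0.31 ± 0.07); Vipr1 and Glp1r had the largest p of the 5, fall outside the naming rule, and lost their calls with library totals (-0.28, adjusted p = 0.0956 for Glp1r, and -0.10, adjusted p = 0.329 for Vipr1).

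In Clec16a KO islets 3 of 11 tested receptor genes were called on each diet, all lower. On RFD Gipr differed by -1.004 ± 0.29, adjusted p = 0.0383, Glp1r by -0.71 ± 0.15, adjusted p = 0.0101, and the somatostatin receptor gene Sstr3 by -0.63 ± 0.11, adjusted p = 0.00385. On HFD the same 3 genes were called, with -1.04 ± 0.25, -0.65 ± 0.13 and -0.47 ± 0.10. Vipr2 and Gcgr, which rose in Tfam KO islets, gave 0.54 ± 0.38 and -0.28 ± 0.19 on RFD and were not called on either diet. On HFD Vipr2 was at 5.80, 6.33, 4.60, 1.41 and 4.56 CPM in KO islets and from 1.94 to 4.38 CPM in controls. Gcgr was at 75.4, 119, 82.1, 57.6 and 53.4 CPM in KO islets and from 62.2 to 89.2 CPM in controls. KO HFD replicate 4, the lowest for Vipr2, held 293 CPM of Gipr, inside the control range of 268 to 378 CPM. The other KO libraries on HFD held 89.8 to 144 CPM of Gipr. The Gipr call on RFD was lost without any of the 4 control RFD libraries or KO RFD replicate 2, 3 or 4 (adjusted p = 0.0566 to 0.114). Npy5r, a receptor of the Ppy and Pyy products, had 0 counts in all libraries of 7 of the 8 groups.

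**Figure D4:**
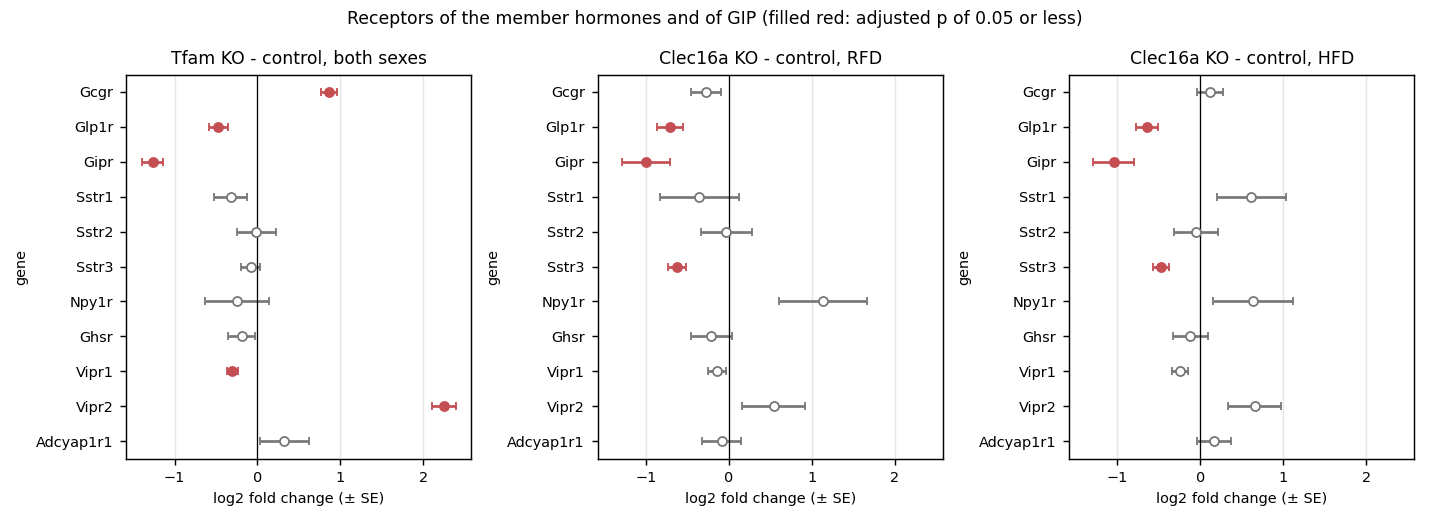
Log2 fold change, KO minus control, with its standard error, of the tested receptor genes of the member hormones and of GIP in Tfam islets of both sexes and in Clec16a islets on RFD and on HFD; filled red points passed an adjusted p of 0.05. Vipr2 (2.25) and Gcgr (0.86) are filled to the right of 0 in Tfam islets, and Gipr and Glp1r are filled to the left in all 3 panels.

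Genes that process prohormones or belong to secretory granules were called in 5 of 11 cases in Tfam KO islets, 1 higher and 4 lower. Chga, which encodes the granule protein chromogranin A, fell (-0.83 ± 0.10), as did Pcsk1 (-0.49 ± 0.08), a prohormone convertase, while Dpp4 (0.61 ± 0.07), the protease that trims GLP-1, PYY and VIP, rose. In Clec16a KO islets 1 of 10 tested was called higher and 1 lower on RFD, and 2 higher on HFD, beside the 7.52% and 9.57% of all genes given above. Both RFD calls (Scg2 and Dpp4) were lost without control RFD replicate 3 or 4 or KO RFD replicate 2 or 4, and the HFD call of Scg2 without control HFD replicate 3 or 5 or any KO HFD library but replicate 4. Of the other regulatory peptides, Cck (2.86 ± 0.74) and Grp (1.75 ± 0.54) rose in Tfam KO islets, 2 of 13 tested, and 2 fell, among them Ucn3, the beta cell peptide that acts on delta cells. Npy, which encodes neuropeptide Y of the same family as the Ppy and Pyy products, fell in Clec16a KO islets on RFD (-2.24 ± 0.49, adjusted p = 0.0106) and on HFD (-1.40 ± 0.43, adjusted p = 0.0442), where 2 of 11 peptide genes on RFD (both lower), and 5 on HFD (3 higher, 2 lower), were called. The HFD call of Npy was lost without any 1 of 11 libraries (adjusted p = 0.0506 to 0.128): control HFD replicate 2, 5 or 6, control RFD replicate 1, 3 or 4, KO HFD replicate 1, 3, 4 or 5, or KO RFD replicate 3. The 3 peptide genes called higher on HFD were Gast, Penk and Pdyn, and all 3 calls were lost without control HFD replicate 2 or 5 or KO HFD replicate 1, 2 or 3. The Grp call was lost without any male control, KO female replicate 4 or either KO male (adjusted p = 0.0546 to 0.0892). Of 12 other endocrine transcription factor genes, 1 was called higher and 5 lower in Tfam KO islets. Those with the smallest adjusted p were Isl1 (-0.74 ± 0.07), Nkx2-2 (-0.53 ± 0.06) and Pax6 (-0.42 ± 0.06), which beta cells share with other endocrine cells. In Clec16a KO islets 1 of 12 was called on each diet, Etv1.

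Vip was the member that differed most between diets, which is why it was chosen. In control islets it was at 19.1, 24.7, 36.2 and 21.998 CPM on RFD and, in 6 libraries on HFD, from 4.78 to 8.36 with a median of 5.26 CPM. In KO islets it was at 13.9, 13.05, 8.87 and 22.9 CPM on RFD and 4.47, 8.46, 5.62, 7.86 and 4.92 CPM on HFD. The diets did not overlap in either genotype, and the 2 HFD groups lay together. The log2 difference, HFD minus RFD, was -2.18 ± 0.24 in control and -1.23 ± 0.25 in KO islets, and the difference between these was 0.95 ± 0.35, given as a description. Of all genes, 0.0406% were called between diets in control islets and 0.0116% in KO islets. The libraries were spread over sequencing lanes 7 and 8 by their names, and within these lanes Vip differed by -1.78 and -2.50 in control and -1.58 and -0.85 in KO islets (mean log2 CPM, the last with 1 RFD library).

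The other 7 members also had negative estimates in both genotypes. Gcg ranged, in the 6 control libraries on HFD, from 31976 to 50094 with a median of 43717 CPM, all below the 4 controls on RFD listed above. In KO islets on HFD it was at 44668, 55622, 41236, 50009.8 and 46298 CPM, overlapping only with KO RFD replicate 4. Its log2 difference was -0.64 ± 0.17 in control and -0.91 ± 0.18 in KO islets, and that of Irx2 -0.501 ± 0.15 and -0.54 ± 0.16. Sst differed by -0.31 and -0.497, Ppy by -0.51 and -0.40, and Ghrl by -0.082 and -0.019, within its SE.

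Genes of other cells moved with diet. Acinar RNA was higher on HFD in 15 of 15 listed genes in control and 14 of 15 in KO islets (medians 1.18 and 1.28), and its sum ran from 5176 to 11315 CPM on RFD to 11172 to 34246 CPM on HFD in control islets. With the acinar level as a covariate the Gcg difference in KO islets was -0.48 and that of Irx2 -0.18. Between diets only these values are given with that covariate, and the part of acinar RNA in the members' values was not tested. Autonomic neuron genes were lower on HFD in 11 of 11 cases in control islets (median -0.69) and 9 of 11 in KO islets (-0.32), and their summed RNA was 131 to 195 CPM on RFD and 111 to 169 CPM on HFD in controls. The part of nerve RNA in the Vip values was not tested.

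The genes whose pattern was most like that of Vip are known from neurons. Likeness was the smaller of the 2 Pearson correlations of log2 CPM over the 14 Tfam and the 19 Clec16a libraries, among 13359 genes, and the points share libraries, depth and conditions. The top 3 were Tac1 (0.85), Pirt (0.80) and Stmn2 (0.78), which encode a sensory neuropeptide precursor, a regulator of sensory channels and a growth-associated protein of axons. Tac1 was at 1.497, 2.34, 2.65 and 1.57 CPM in RFD controls and, on HFD, from 0.281 to 0.995 with a median of 0.484 CPM. The log2 difference of Tac1 between diets was -1.81 in control and -1.48 in KO islets, that of Pirt -1.09 and -0.37, and that of Stmn2 -0.70 and -0.36. These 3 genes were chosen for their likeness to Vip over the same libraries, so a difference in its direction follows from the choice. Within groups, after removal of group means, the correlations of Vip with Tac1 were 0.85 (Tfam) and 0.46 (Clec16a). Those with Pirt were 0.86 and 0.69, and those with Stmn2 0.85 and 0.52. These values come from the libraries used for the choice and are descriptions too.

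**Figure D5:**
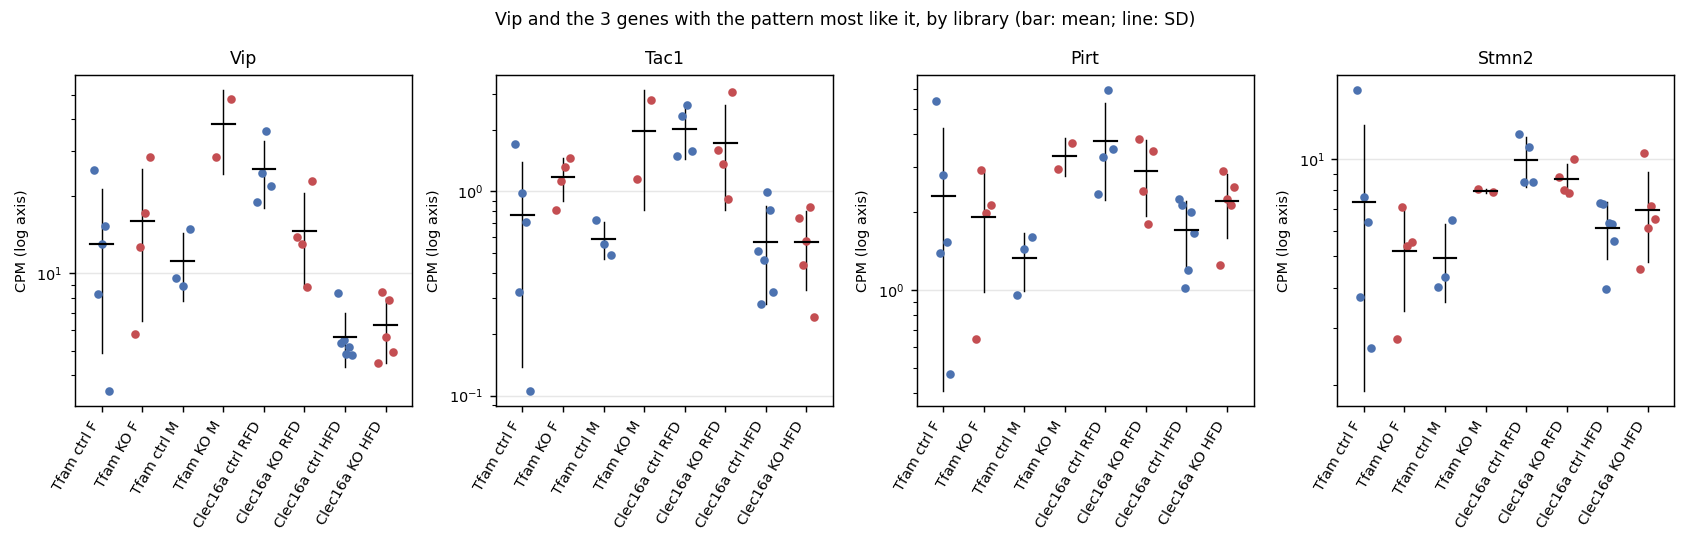
CPM of Vip, Tac1, Pirt and Stmn2 by library on a log axis for the 8 islet groups (ctrl, control; F, female; M, male), control in blue and KO in red, with the group mean as a bar and the SD as a line. The 3 other genes were chosen for likeness to Vip over these libraries, so that their lower values on HFD in control islets follow from the choice; Tac1 lies near 1 CPM or below it in many libraries.

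The most similar genes of the endocrine members were found in the same way. Those of Gcg were Eef1a2 (0.90), Sgce (0.86) and Ttr (0.85), and those of Irx2 Mamld1 (0.87), Eef1a2 (0.87) and Sgce (0.85), so that Eef1a2 and Sgce stood in both lists. Gcg and Irx2 themselves correlated at 0.92 over the 14 Tfam libraries and 0.91 over the 19 Clec16a libraries. Those of Sst were Serping1 (0.82) and S100a11 (0.80), those of Pyy Cst3 (0.90), Ddah2 (0.79) and Rcn3 (0.76), and those of Hhex Ly6h (0.71), Ncs1 (0.63) and Slc25a53 (0.60). Within groups the Hhex correlations in Tfam islets were 0.13, 0.14 and -0.29. Ppy (Wdr83 (0.73), Urod (0.67) and C8g (0.66)) and Ghrl (Hsd17b10 (0.61), Psmc3ip (0.60) and Unc119 (0.59)) had weaker partners. Ppy and Pyy, the neighbours on chromosome 11, correlated at 0.83 over the 14 Tfam libraries and 0.74 over the 19 Clec16a libraries. Gcg and the acinar gene Prss2 correlated at 0.22 over the 14 Tfam libraries and -0.87 over the 19 Clec16a libraries, opposite in sign between the experiments.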

How the data were processed

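The authors deposited 1 table per library with raw counts per gene, TPM and CPM, named so per the file headers; the deposited CPM were counts over the library total and were used only to check the counts. STAR 2.6.1b, RSEM 1.3.1, featureCounts, FastQC, MultiQC, DESeq2 and GRCm38 are named, per the submitters' processing notes, without their roles, and which program gave the counts, its strand setting and its annotation are not given in the sources used here. The deposited TPM of the authors served only to compare levels between genes. GENCODE M21 held 55141 of the 55487 identifiers.

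The 2 islet experiments were modelled separately on the deposited counts (edgeR 4.0.16 in R 4.3.3, quasi-likelihood test, TMM scaling, filterByExpr). P-values were adjusted by Benjamini-Hochberg over the whole table, calls needed 0.05 or less, and tests were two-sided. Sex was an additive term in the fit over both sexes, and other fits had 1 mean per group. Standard errors are the log2 change over the square root of F. The log2 CPM used a prior count of 2. All 8 members passed the filter in both experiments. The members and gene lists were chosen with earlier results of these data known, so list counts are descriptions. The genes named are the 8 members, the 3 called genes with the smallest adjusted p per list and genotype comparison, and the 3 genes most like each member with a mean of at least 1 CPM. A pair of listed genes is not reported here and was left out of the lists. Ero1b was listed but its symbol was not found. The steps were tested on simulated data. Alternatives were size factors, filters, the DESeq2 1.42.0 Wald test, each library left out, a replicate block, lane, the acinar level as a covariate, hormone genes removed before scaling, and only the groups compared. Library totals, the comparisons between sexes and the ratios were added after the values were seen. The p-values measure the spread between these samples, which may in part be technical, and depth intervals would cover counting error only.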

Additional observations from a re-analysis of the deposited data

Results flagged for a closer look

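Within 48 combinations of a member and a group of 4 to 6 libraries, 5 held 1 library whose gap to its nearest neighbour was a large share of the group's range, and chance alone gives about 1 in 20 such gaps. Gcg in Tfam KO female replicate 2 was the lowest of 4, at 39499 CPM. Sst in Tfam control female replicate 4 was the highest of 5, at 7227 CPM, and this library also held the highest Gcg, Ppy, Pyy and Ghrl values of its group. Vip in Clec16a control HFD replicate 1 was the highest of 6, at 8.36 CPM, still below every RFD control. Irx2 in Clec16a KO HFD replicate 2 was the highest of 5, at 52.2 CPM. Hhex in Clec16a control RFD replicate 1 was the highest of 4, at 34.9 CPM.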

How the results depend on the processing

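Of 3935 recomputed log2 differences of single genes, 3604 kept their direction and their side of the threshold, 294 lost a call, 18 gained one, 17 changed sign and 2 moved by more than the spread. The cause of these changes was not tested. In Tfam islets of both sexes the count of members called, 2, became 1 by the DESeq2 Wald test, 1 with a replicate block, 0 with library totals, 0 with no sex term, and 0 to 3 with 1 library left out. In females it became 1 with library totals. In males, with 0 called, it became 1 with no filter, 3 with a replicate block, 3 with library totals, 2 with only the groups compared, and 0 to 1 with 1 library left out. Between the sexes of control islets the 4 calls became 1 with only the groups compared and 0 to 4 with 1 library left out. In Clec16a islets the count of 0 became 1 by the DESeq2 Wald test and 0 to 2 with 1 library left out on RFD, and on HFD 1 with library totals and 0 to 1 with 1 library left out. The RFD counts include Vip, whose p-values on RFD are descriptions.

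Changes of sign touched uncalled values. With library totals they were, over both sexes, Gcg (0.15), Pyy (0.047) and Ghrl (0.051), Irx2 in females (0.050), and Sst (0.17) and Hhex (0.10) in males. With the acinar level as a covariate they were Gcg over both sexes (0.024) and Irx2 in females (0.013), and with a replicate block Vip in females (-0.10). With 1 library left out, Gcg ran from -0.23 to 0.077, Ghrl from -0.29 to 0.10 and Irx2 from -0.078 to 0.12 over both sexes, Vip in females from -0.13 to 0.68, Sst in males from -0.17 to 0.10, and Vip between the sexes of control islets from -0.497 to 0.16.

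Replicate numbers were not taken as pairs. Residuals of same-numbered libraries had a median correlation of 0.065 in the Tfam experiment (-0.012 for other numbers), with 6 of 16 pairs over 0.1. In the Clec16a experiment it was -0.016 (-0.012 for other numbers), with 3 of 25 pairs over 0.1. Such medians cannot exclude a pairing, and the labels state none, so the replicate block is given here alone. With it 3 members were called in Tfam females, as Gcg joined Sst and Hhex (-0.54, adjusted p = 0.026). Between the sexes of control islets it lost the call of Sst (-0.78, adjusted p = 0.107). It moved the count of all genes called on HFD from 1652 to 975. Counts over all genes also moved with library totals (both sexes 4119 to 6825, females 2142 to 4766, males 1764 to 3169, control sexes 303 to 182), with the Wald test (males 2708, control sexes 985, KO sexes 12 to 185), with only the groups compared (control sexes 12, KO sexes 121) and with other filters (KO sexes 1 and 158). With 1 library left out they ran from 3096 to 4995 over both sexes, 1336 to 2626 in females, 578 to 2541 in males, 15 to 362 between control sexes, 523 to 2015 on RFD and 786 to 3369 on HFD. The highest counts on RFD (2015) and on HFD (3369) both came without Clec16a KO HFD replicate 4, the library with Gipr inside the control range. Depth limits Ghrl and Vip most, whose lowest counts in an islet library were 75 and 81.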

Other observations

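Bhlha15, a transcription factor of acinar secretory cells, went apart from the acinar enzyme genes. It was called lower in Tfam KO islets over both sexes (-0.83 ± 0.12, adjusted p = 0.000165), the only called gene of the 15 on that list, whose median was -0.16. In males it fell by 1.10 on the log2 scale while the list median was 1.25. In Clec16a KO islets on RFD it was called higher (0.996 ± 0.29, adjusted p = 0.039), where the list median was -0.41.

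Th, the gene of tyrosine hydroxylase and listed here with autonomic neuron genes, was called lower in Tfam KO islets (-0.81 ± 0.13, adjusted p = 0.000415), and in Clec16a KO islets on RFD (-1.44 ± 0.21, adjusted p = 0.00163) and HFD (-1.48 ± 0.18, adjusted p = 0.000177). Of the other neuron genes, 1 of 10 tested was called in Tfam KO islets, Tubb3, which was higher (0.45 ± 0.12), and 0 of 10 in Clec16a KO islets on either diet.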
